A study of Mus musculus with 2 samples.

Results

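Conventional type 2 dendritic cells (cDC2s) were sought in mouse prostate tumors by a gate on single-cell transcript counts, and 101 barcodes of 22524 passed it. Of these gated cells, 76 came from 12253 barcodes of the control library and 25 from 10271 barcodes of the ENZ library. A barcode was kept when it held at least 1000 unique molecular identifiers (UMIs, each counting 1 captured transcript) and at most 20% mitochondrial UMIs. It entered the gate when H2-Aa, H2-Ab1 and Cd74 summed to at least 20 UMIs, Cd209a and Flt3 summed to at least 2, and Clec9a, Xcr1, Ccr7 and Siglech were all at 0. It also had to hold at most 2 UMIs of the C1q genes C1qa, C1qb and C1qc, at most 1 UMI of the Cd3 genes and at most 1 of Cd79a. These measured values chose the cells, so their levels describe the gate and are not results.

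The tumors were grown by injecting RM-1 cells, a mouse prostate cancer cell line labelled WT, into the prostate of C57BL/6 mice. Droplet-based single-cell RNA sequencing (scRNA-seq) was run on 1 tumor from a mouse given vehicle (control) and 1 tumor from a mouse given enzalutamide (ENZ), an androgen receptor antagonist. Each condition therefore has 1 mouse and 1 library, and no age is given in the labels. Immune cells were enriched with a cell isolation kit and then stained for CD45 before sequencing. The control library held 170830346 UMIs and the ENZ library 162030149 UMIs, each counted over 32285 genes. With 1 library per condition no test between conditions can be made. The values below are UMIs summed over the gated cells of a library and scaled to a total of 1000000 UMIs per gate and library. This gives CPM, the level of a gene among all transcripts of the gate. Their 95% intervals cover counting error only, not differences between mice or between cells.

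cDC2s take up antigen in tissues, load peptides on MHC class II molecules and present them to CD4+ T cells. They depend on the growth factor receptor Flt3, carry the surface receptor Sirpa and, in many mouse tissues, the lectins Cd209a, Clec10a and Mgl2 (CD301b). They stand apart from cDC1s, which carry Clec9a and Xcr1 and cross-present antigen to CD8+ T cells, and from mature dendritic cells, which gain Ccr7 and leave for the draining lymph node. The cDC2A subset is known for Esam and Clec4a4, and the cDC2B subset shares genes such as Lyz2 and Clec10a with monocytes.

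The gate starts from MHC class II, whose promoters share a short element. The letters GATTGG, or CCAATC when read on the other strand, are the core of the Y box, which the factor NF-Y binds beside the boxes that recruit the class II coactivator Ciita. The 120 bases before the start of 4 class II genes are shown, 5′ to 3′ on the strand of the gene, with these letters in capitals, because they carry the antigen-presentation genes described below. They come from RefSeq on GRCm38.p6, at chr17:34287824-34287943 (minus strand, H2-Aa), chr17:34305747-34305866 (plus strand, H2-Eb1), chr17:34145129-34145248 (plus strand, H2-DMb2) and chr17:34092259-34092378 (plus strand, H2-Oa).
H2-Aa: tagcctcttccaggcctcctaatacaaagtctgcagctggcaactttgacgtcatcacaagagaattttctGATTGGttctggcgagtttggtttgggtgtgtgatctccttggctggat
H2-Eb1: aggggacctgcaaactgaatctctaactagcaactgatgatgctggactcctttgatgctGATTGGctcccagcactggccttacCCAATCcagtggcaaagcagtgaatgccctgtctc
H2-DMb2: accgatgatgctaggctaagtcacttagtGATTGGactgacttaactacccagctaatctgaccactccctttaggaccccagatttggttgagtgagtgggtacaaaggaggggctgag
H2-Oa: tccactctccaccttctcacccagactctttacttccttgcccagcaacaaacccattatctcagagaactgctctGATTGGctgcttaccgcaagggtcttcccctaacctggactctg
The match lies 49 bases before the start in H2-Aa, 60 and 35 bases in H2-Eb1, 91 bases in H2-DMb2 and 44 bases in H2-Oa. GATTGG was searched on both strands, and no other motif was searched. The table held 13 promoters of 11 of the 14 class II pathway genes (not Cd74, H2-Ab1 or Ciita), and 7 of these promoters held a match, beside 3178 of all 32851 promoters (9.67%). A match describes the letters only.

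The gate narrowed in steps. Class II sums of at least 20 UMIs were held by 2807 control and 1160 ENZ barcodes, and of these 176 and 57 had at least 2 UMIs of Cd209a and Flt3. Leaving out Clec9a or Xcr1 carriers left 123 and 38 barcodes, and leaving out Ccr7 carriers left 96 and 27. The limits on C1q, Cd3, Cd79a and Siglech then removed 20 control and 2 ENZ barcodes in all. At the edge of the sum, 36 control and 12 ENZ cells had exactly 2 UMIs of Cd209a and Flt3, and the 66 and 27 barcodes with exactly 1 stayed outside. The cells just inside had 256 CPM (control) and 173 CPM (ENZ) of Mgl2 and 3754 and 4450 CPM of H2-Eb1. The barcodes just outside had 109 and 227 CPM of Mgl2 and 2178 and 2574 CPM of H2-Eb1. At the edge of the class II sum, 5 control and 2 ENZ cells had 20 to 29 UMIs, and 2 barcodes in each library that met the other limits had 10 to 19.

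Gated control cells held a median of 7311 UMIs and 2278 genes, and gated ENZ cells 6177 UMIs and 2149 genes. Their summed depth was 704030 and 179760 UMIs, so that 1 UMI was worth 1.42 CPM in control cells and 5.56 CPM in the ENZ library. At the same CPM an ENZ value therefore rests on fewer UMIs. No gated barcode was shared between the libraries, against 39 shared among all kept barcodes, although 1 gated barcode of each library also occurred among the other library's kept barcodes.

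Barcodes over 20000 UMIs stood apart from the other gated cells. There were 6 in the control, with 25315 to 35469 UMIs and 12 to 35 UMIs of the epithelial keratins Krt8 and Krt18, and 1 in the ENZ library, with 33030 UMIs and 11 keratin UMIs. No other gated cell had more than 1 keratin UMI. These 7 barcodes held 25.7% of the gated control UMIs and 18.4% of the gated ENZ UMIs. In the cancer gate, defined by at least 10 keratin UMIs, no Ptprc and a class II sum under 20, barcodes had a median of 28760 and 27672 UMIs. Ratios between conditions whose interval reached or left 1 once these barcodes were left out are therefore also given without them. A doublet score above 0.25 was found for 5 gated control cells and no gated ENZ cell.

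The labels name the whole sample a prostate cancer cell line, but the gated cells carried the leukocyte gene Ptprc (CD45) in 60 of 76 control and 23 of 25 ENZ cells. T cell genes, 3 of them limited by the gate, were close to absent, with a summed level of 7.10 CPM in the control, from 3 of 9 genes, and 0 of 9 genes in the ENZ library. NK genes summed to 22.7 CPM (5 of 7 genes) and 11.1 CPM (1 of 7), with the NK-defining Ncr1 at 0 in both. B cell genes summed to 12.8 CPM (3 of 8 genes) and 33.4 CPM (3 of 8), with Ms4a1 at 0 in both. Plasmacytoid dendritic cell genes summed to 472 CPM (4 of 8 genes) and 373 CPM (3 of 8), led by the widely expressed Bst2, with Ly6d and Cox6a2 at 0 in both. Mast cell genes were represented by Gata2 alone, at 11.4 and 5.56 CPM.

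Cd209a (chr8:3743397-3748984, minus strand, GRCm38), Flt3 (chr5:147330741-147400489, minus strand) and the lectin gene Mgl2 (chr11:70130329-70137550, plus strand) are protein-coding genes of the GENCODE M21 annotation. Cd209a lies among close relatives, and reads of near copies may be split among them by the counting. Markers of cDC2s and dendritic cells that the gate did not use were all found, some of them at low levels. All 13 genes of the list, with Cd209a and Flt3 of the gate among them, had UMIs in both libraries. Mgl2, a galactose-binding lectin, was at 285 CPM in control cells and 367 CPM in the ENZ cells, and Clec10a, its close relative, at 112 and 128 CPM. Kmo, an enzyme of tryptophan breakdown known as a cDC2 gene, was at 95.2 and 150 CPM. Sirpa was at 75.3 and 150 CPM, Itgam at 151 and 217 CPM, and Itgax (CD11c) at 126 and 150 CPM. Irf4, a transcription factor of cDC2s, was low at 24.1 and 16.7 CPM, from 17 and 3 UMIs. Clec12a, also of the list, was low at 7.1 and 16.7 CPM, in 3 and 2 cells. It was below its 108 and 108 CPM in the cDC1 gate. Cd209a itself, at 332 and 278 CPM in the gate, had no UMI in the T cell gate of either library. It was at 2.44 and 0 CPM in the cDC1 gate and at 18 and 6.56 CPM in the Ccr7 gate. In the C1q macrophage gate it was at 5.62 and 0.841 CPM. The monocyte gate required Cd209a and Flt3 at 0, so their absence there follows from its rule.

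When every cell was thinned to 1000 UMIs, 22.4% of the gated control cells (13.6 to 33.4%, exact binomial) and 24.0% of the gated ENZ cells (9.36 to 45.1%) kept a Cd209a UMI. Without thinning the shares were 73.7% and 60%. None of 414 control and 558 ENZ cells of the T cell gate, which should lack the gene, had one, thinned or at their own median depths of 4308 and 4634 UMIs. In the Ccr7 gate 6.78% of control cells and no ENZ cell kept one after thinning. Since Cd209a was part of the rule, these shares describe the gate. Mgl2 differed from Cd209a in that it was also abundant in the C1q macrophage gate, at 317 and 286 CPM. The gated cells had 285 and 367 CPM of it.

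Cells chosen through Cd209a and cells chosen through Flt3 alone were not alike. In the control, 47 gated cells had Cd209a only, 9 had both genes and 20 had Flt3 only. In the ENZ library the numbers were 9, 6 and 10. The share with any Cd209a was 73.7% (62.3 to 83.1%) in control cells and 60% (38.7 to 78.9%) in the ENZ library, and these intervals overlap. The share with any Flt3 was 38.2% (27.2 to 50%) and 64.0% (42.5 to 82.0%), and after thinning it was 11.8% (5.56 to 21.3%) and 20% (6.83 to 40.7%) in 1 draw and 7.89% (2.95 to 16.4%) and 32.0% (14.9 to 53.5%) in another. The highest count in a cell was 14 UMIs for Cd209a and 5 for Flt3.

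**Figure D1:**
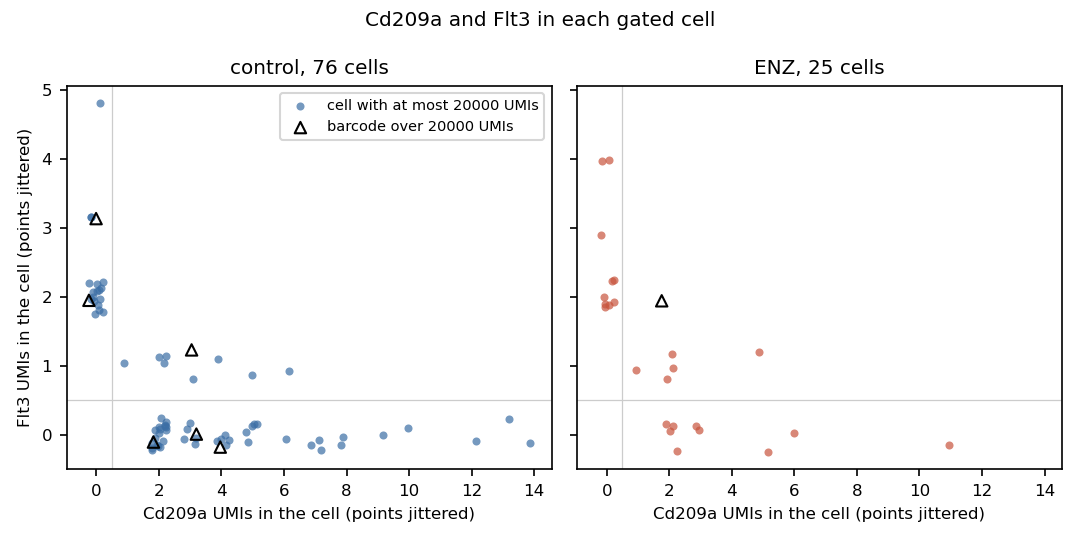
UMIs of Cd209a (x axis) and of Flt3 (y axis) in each gated cell of the control and ENZ libraries, with triangles for barcodes over 20000 UMIs. Most control cells (47 of 76) lie on the Cd209a axis with no Flt3, and 20 control and 10 ENZ cells lie on the Flt3 axis with no Cd209a.

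The Cd209a carriers held more of the lectin genes Mgl2 and Clec10a than the Flt3-only cells, while Sirpa, Irf4, Itgam and Itgax are not given by subset. Mgl2 was at 380 CPM (control) and 489 CPM (ENZ) in them, against 26.5 and 21.3 CPM in the Flt3-only cells. Clec10a was at 149 and 158 CPM against 10.6 and 42.6 CPM. A UMI of either lectin was found in 36 of 56 control and 12 of 15 ENZ Cd209a carriers, and in 5 of 20 and 2 of 10 Flt3-only cells. Klrd1, a lectin-like receptor better known from NK cells, was at 215 and 97.8 CPM against 47.7 and 21.3 CPM. H2-Eb1, a class II beta chain, was at 4318 and 4892 CPM against 2225 and 3774 CPM. All 4 of these genes were higher in the Cd209a carriers in both libraries.

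The Flt3-only cells held more of the cDC1 genes, although the gate had removed every barcode with Clec9a or Xcr1. Cadm1, an adhesion molecule of cDC1s, was at 201 CPM (control) and 384 CPM (ENZ) in them and at 13.6 and 15.1 CPM in the Cd209a carriers. At least 3 Cadm1 UMIs were found in 7 of 20 control and 2 of 10 ENZ Flt3-only cells, against 1 of 56 and 0 of 15 Cd209a carriers. Irf8, the transcription factor on which cDC1s depend, was at 281 and 213 CPM against 48.5 and 30.1 CPM. Wdfy4, needed for cross-presentation, was at 344 and 640 CPM against 122 and 437 CPM. The 11 genes of the cDC1 list summed to 1134 and 2111 CPM in the Flt3-only cells, to 310 and 775 CPM in the Cd209a carriers and to 3458 and 4844 CPM in the cDC1 gate. In the double-negative gate, described below, the list summed to 306 and 369 CPM, so the ENZ carriers stood above it and the control carriers near it. The name cDC2 is used for the Cd209a carriers, and it rests on Cd209a, which chose them, and on Mgl2 and Clec10a. The Flt3-only cells are called here by the gene that chose them. All values for the gate as a whole mix both.

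**Figure D2:**
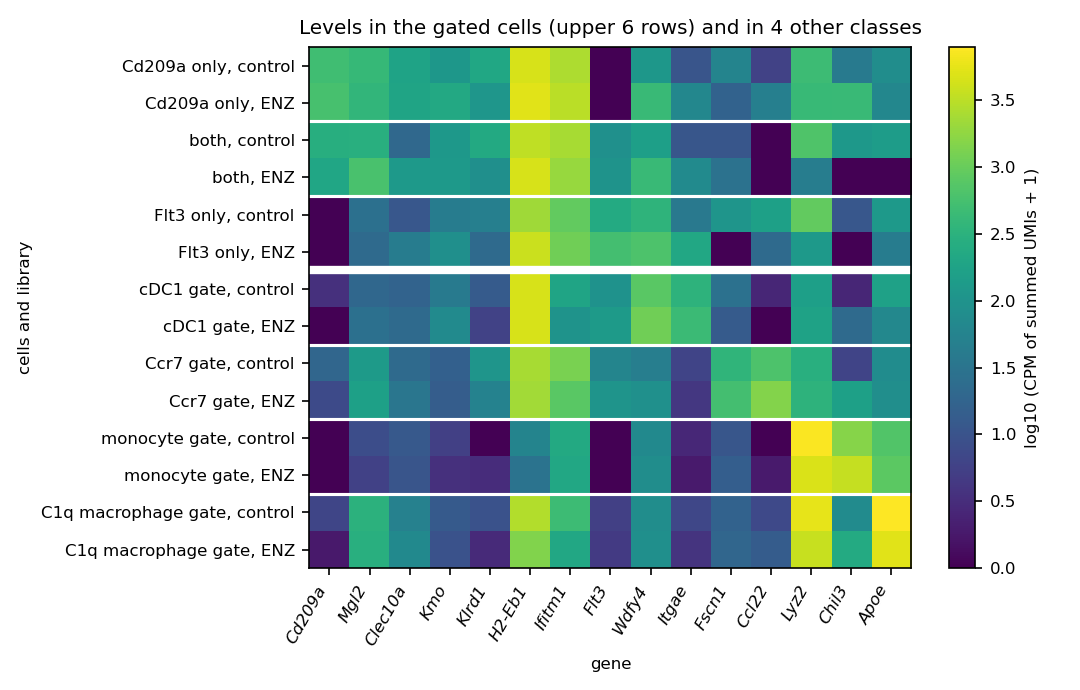
Level of 15 genes, as log10 of CPM + 1 of summed UMIs, in 3 subsets of the gated cells and in 4 other gates, with a column for each gene and a row for each library. Clec10a is highest in the gated cells with Cd209a only (181 and 190 CPM), Wdfy4 is at 344 and 640 CPM in the Flt3-only cells, and Fscn1 and Ccl22 are highest in the Ccr7 gate.

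Of the cDC2 subsets, the genes of cDC2B were found and those of cDC2A were near 0. All 7 cDC2B genes had UMIs in both libraries and summed to 1335 CPM in control cells and 1012 CPM in the ENZ cells. The 6 cDC2A genes summed to 18.5 and 27.8 CPM, with Cd4 and Dtx1 at 0 in both libraries and Esam and Clec4a4 at 0 in the ENZ cells. At this depth an ENZ gene at 0 can still be as high as 16.7 CPM, the level of 3 UMIs. Several cDC2B genes are also monocyte genes. The monocyte list summed to 2893 CPM (15 of 15 genes) and 2503 CPM (14 of 15), with Plac8 the most abundant at 1197 and 1268 CPM, against 20586 and 18167 CPM in the monocyte gate.

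Gated cells made up 0.620% of the kept control barcodes (0.489 to 0.776%) and 0.243% of the kept ENZ barcodes (0.158 to 0.359%), a ratio of 0.392 (0.239 to 0.624). The sort for immune cells can set this share, and its part was not tested. Among barcodes with a Ptprc UMI the shares were 0.878% (60 of 6837) and 0.466% (23 of 4937), a ratio of 0.531 (0.313 to 0.872). Among barcodes with at least 20 class II UMIs they were 2.71% and 2.16%, a ratio of 0.796 (0.485 to 1.27), and this interval spans equal shares. The cDC1 gate had a ratio of 0.493 (0.328 to 0.726) among all kept barcodes, and 0.999 (0.666 to 1.47) among class II barcodes. Among all kept barcodes the ratio was 2.01 (1.77 to 2.29) for the monocyte gate, 1.61 (1.41 to 1.83) for the T cell gate and 1.70 (1.59 to 1.81) for the cancer gate. It was 0.465 (0.409 to 0.527) for the C1q macrophage gate and 0.582 (0.516 to 0.656) for the double-negative gate. For the Ccr7 gate it was 0.647 (0.407 to 1.01), an interval that spans 1.

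Beside other gates, the cells were set apart by a fixed rule of size, a level at least 2-fold higher or lower in both libraries among genes with a mean of at least 50 CPM. These gates were built from measured genes, so the differences are a description. Against the cDC1 gate (92 control and 38 ENZ cells), 132 of 3099 genes were higher (4.26%) and 120 were lower (3.87%). Without barcodes over 20000 UMIs in either class the numbers were 202 and 144.

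The genes higher than in cDC1s included an oxidase subunit, lectins and Ifitm1. Cybb, the catalytic subunit of the phagocyte NADPH oxidase, was at 96.6 CPM (control) and 156 CPM (ENZ), which was 23.8 and 21.6 times its level in the cDC1 gate. Ms4a4c was 13.9 and 27.2 times higher, Mgl2 15.3 and 13.9 times and Klrd1 14 and 16.2 times. Ifitm1, a membrane protein that restricts virus entry, was at 2132 and 2164 CPM against 188 and 101 CPM. In the monocyte gate Ifitm1 was at 230 and 218 CPM, so its level in the gated cells was above both. Lower than in cDC1s were Ppt1, a lysosomal thioesterase (0.167 and 0.130 times), the scavenger receptor Cd36 (0.105 and 0.113 times), the tetraspanin Cd81 (0.130 and 0.0725 times) and Irf8 (0.181 and 0.0839 times).

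Against the Ccr7 gate (59 control and 32 ENZ cells), 92 of 3132 genes were higher (2.94%) and 104 were lower (3.32%), or 112 and 162 without barcodes over 20000 UMIs. Kmo was 6.63 and 11.5 times higher. Ckb, the brain-type creatine kinase, was 7.59 and 17.8 times higher. Among the lower genes were chemokines of mature dendritic cells, with Ccl22 at 46.9 and 22.3 CPM against 648 and 1472 CPM and Ccl5 at 34.1 and 27.8 CPM against 1309 and 1092 CPM. Of the 33 control UMIs of Ccl22 in the gate, 31 were in 1 cell. The 12 genes of the mature dendritic cell list summed to 410 CPM (10 of 12 genes, Relb highest at 105 CPM) and 495 CPM (7 of 12, Ccl17 highest at 200 CPM) in the gated cells, against 3194 and 5071 CPM in the Ccr7 gate. Lamp3 was at 0 in both libraries of both gates.

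The double-negative gate (828 control and 404 ENZ cells) held cells that met the rule but for Cd209a and Flt3, which were at 0. Against it, 76 of 3157 genes were higher (2.41%) and 75 were lower (2.38%). Mgl2 was at 62.7 and 78.5 CPM there, Kmo at 12.6 and 15.3 CPM and Zbtb46 at 18.4 and 15.6 CPM, all below the gated cells. Itgam, of the same marker list, went the other way. It was at 269 and 374 CPM there, above its levels in the gated cells given earlier.

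Against the monocyte gate (374 control and 631 ENZ cells), 147 of 3052 genes were higher (4.82%) and 253 were lower (8.29%). That gate required a low class II sum, so the 67.1 and 156 times higher level of H2-Eb1 follows from it. Genes outside the class II pathway with few monocyte UMIs were Ccl17, a chemokine for Ccr4-bearing T cells, at 82.4 and 200 CPM against 1 monocyte UMI in each library, and Rtn1 at 89.5 and 117 CPM, also against 1 UMI each. Zfp366 (DC-SCRIPT), a transcription factor of dendritic cells, was at 38.4 and 94.6 CPM against 1 UMI each. Ratios to 1 UMI are too uncertain to rank.

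Against the C1q macrophage gate (883 control and 344 ENZ cells), 106 of 3190 genes were higher (3.32%) and 229 were lower (7.18%). H2-Oa, which slows peptide loading of class II, was 9.98 and 83.3 times higher, the latter against 5 macrophage UMIs. Klrd1 was 19.6 and 39.7 times higher, Klrk1 (NKG2D) 11.2 and 11.8 times and P2ry10, a lysophospholipid receptor, 10.9 and 25.1 times. Klrd1 and Klrk1 are better known as receptors of NK and T cells. Apoe, the lipid carrier, was at 101 and 33.4 CPM against 7870 and 5332 CPM, and Selenop, a selenium carrier, at 11.4 and 11.1 CPM against 604 and 763 CPM.

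Between conditions, 3062 genes had a mean of at least 50 CPM over both libraries and were not used by the gate. The ENZ to control ratio was at least 1.5 for 465 of them (15.2%) and at most 1/1.5 for 399 (13%), and its median was 0.00 on the log2 scale. The interval was above 1 for 272 of the higher genes and below 1 for 191 of the lower genes. These numbers, over all gated cells, are the background for every list below. Without each gene's highest cell, 256 genes (8.36%) were higher and 893 (29.2%) lower. That step removes 1 of 25 ENZ but 1 of 76 control cells per gene. In 217 genes at least 50% of the UMIs of a library were in 1 cell. A gene near the minimum level that passed it through 1 library alone had to differ, so the number of members that passed gives no support by itself.

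**Figure D3:**
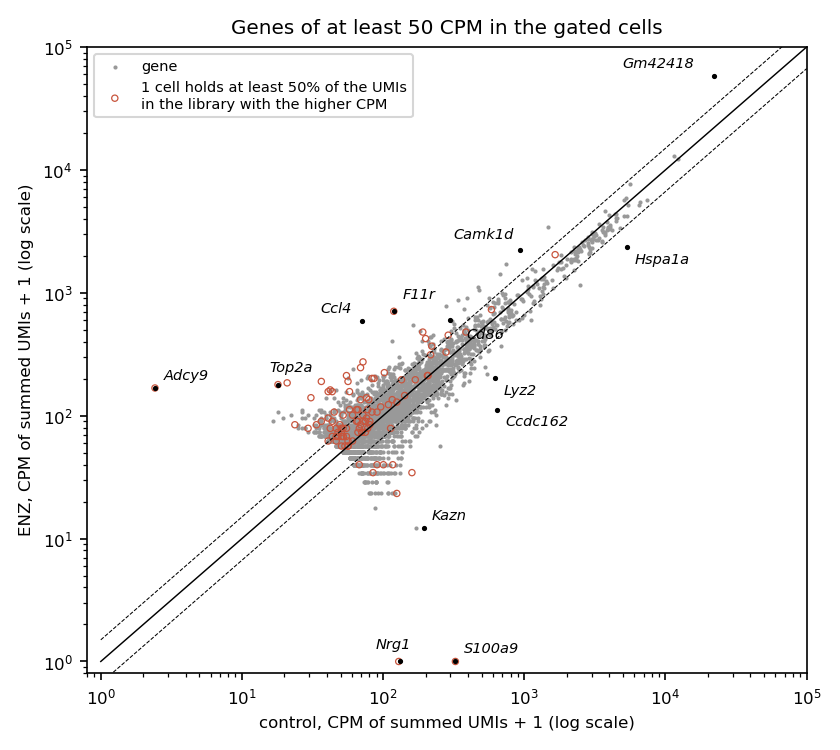
CPM + 1 in the gated cells of the control (x axis) and ENZ library (y axis), both log scales, with a point for each gene of at least 50 CPM, a solid line at equality and dashed lines at 1.5-fold. Red circles mark genes with at least 50% of their UMIs in 1 cell of the library where they were higher, such as S100a9 (228 control and 0 ENZ UMIs).

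Among costimulatory and checkpoint ligands, Cd86, Cd80 and Cd83 were higher in the ENZ cells, with counting intervals above 1. Of the 17 genes listed, 6 reached the minimum level, of which 5 had a ratio of at least 1.5 (background 15.2%) and none a ratio of at most 1/1.5 (background 13%), with a median of 0.83 on the log2 scale. Cd86, the ligand that binds CD28 and CTLA4 on T cells, was at 297 CPM in the control (209 UMIs in 58 of 76 cells) and at 595 CPM in the ENZ cells (107 UMIs in 18 of 25 cells), a ratio of 2.01 (1.57 to 2.54). Cd80, its partner, was at 121 and 250 CPM, a ratio of 2.07 (1.41 to 3.01). The mean of each cell's CPM was 347 (standard deviation 488) in the control and 606 (676) in the ENZ cells for Cd86. For Cd80 it was 166 (227) and 219 (282). The intervals of the ratios do not cover this spread between cells. The share of cells with a Cd86 UMI after thinning was 21.1% (12.5 to 31.9%) and 28.0% (12.1 to 49.4%), so the difference in cells with a UMI was not detectable at this depth. For Cd80 the thinned shares ran opposite to its CPM, at 23.7% (14.7 to 34.8%) of control cells and 8.0% (0.984 to 26.0%) of the ENZ cells, and no order is read from them.

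Cd83, a stabilizer of class II and Cd86 at the surface, was at 206 CPM in control cells and 401 CPM in the ENZ cells, a ratio of 1.94 (1.45 to 2.60). Its mean of each cell's CPM was 247 (standard deviation 335) and 512 (603). For the checkpoint ligands Cd274 (PD-L1) and Pvr the ratios were 1.58 (0.951 to 2.55) and 1.62 (0.865 to 2.92), and these intervals span 1. Havcr2 (TIM-3) was at 165 and 239 CPM, a ratio of 1.45 (0.998 to 2.08). Without barcodes over 20000 UMIs, Cd86 kept a ratio of 1.80 (1.40 to 2.30), Cd80 of 1.72 (1.15 to 2.54) and Cd83 of 1.80 (1.33 to 2.40), and Cd274 was at 1.29 (0.752 to 2.12). Below the minimum level were Cd40, with 17 control UMIs and 1 ENZ UMI, and Pdcd1lg2 (PD-L2), with 16 and 10. The list's median was 0.44 in the Ccr7 gate, 0.22 in the C1q macrophage gate, 0.16 in the double-negative gate and -0.28 in the cDC1 gate. The differences between these medians were not tested.

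Of the 14 genes of the class II pathway, 3 were used by the gate and 9 of the others reached the minimum level, of which 3 had a ratio of at least 1.5 and none a ratio of at most 1/1.5, with a median of 0.16 on the log2 scale. H2-Oa was at 54.0 CPM in the control (38 UMIs) and 117 CPM in the ENZ cells (21 UMIs), a ratio of 2.16 (1.21 to 3.78). Ciita, the coactivator that switches the class II genes on, was at 111 and 206 CPM, a ratio of 1.86 (1.22 to 2.78). H2-DMb2, a subunit of the peptide exchanger H2-M, was at 124 and 195 CPM, a ratio of 1.58 (1.03 to 2.36). The abundant H2-Eb1 was at 3757 and 4601 CPM, a ratio of 1.22 (1.13 to 1.32) that came to 1.03 (0.947 to 1.12) without barcodes over 20000 UMIs.

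The related subunit H2-DMb1 was at 440 and 356 CPM, a ratio of 0.809 (0.608 to 1.06) that came to 0.664 (0.487 to 0.890) without barcodes over 20000 UMIs, an interval below 1. Without the large barcodes the ratio of H2-Oa was 1.78 (0.971 to 3.17) and that of H2-DMb2 was 1.33 (0.855 to 2.01), both with intervals that span 1. Ciita then had a ratio of 1.59 (1.02 to 2.43). For the gate's own genes the levels were 3983 and 4845 CPM for H2-Aa and 4515 and 4862 CPM for H2-Ab1, as a description. The 4 promoters printed above are all among the 7 with a match, so their Y box letters are not read beside these ratios. H2-DMb1 holds the letters too, and over all gated cells the interval of its ratio spans 1.

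The MHC class I pathway, which presents peptides to CD8+ T cells, had 15 of 18 genes at the minimum level, of which 4 had a ratio of at least 1.5 and none a ratio of at most 1/1.5, with a median of 0.33. Tap1, a subunit of the peptide transporter, was at 32.7 and 77.9 CPM, a ratio of 2.38 (1.13 to 4.83) from 23 and 14 UMIs, or 1.94 (0.877 to 4.10) without barcodes over 20000 UMIs. The abundant genes did not move by as much. B2m, the light chain, was at 1814 and 1786 CPM, and H2-K1, a heavy chain, at 791 and 840 CPM. H2-Q6 and H2-Q7 are near copies of each other, and their UMIs may be split between them by the counting.

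Type I interferon genes split by their level. Of 33 listed genes in the files, 13 reached the minimum level, and 7 of these had a ratio of at least 1.5 and none a ratio of at most 1/1.5, with a median of 1.05. The higher ones were mostly low in level. Ifi205 and Slfn5, given next, lay under the minimum level in the control and passed it through the ENZ library. A gene that passed in this way had to be higher in the ENZ cells. The 7 higher genes, the median and the split by level therefore rest in part on the minimum. Which other higher genes passed in this way is not given here. Ifi205 was at 45.5 CPM in the control (32 UMIs in 19 cells) and 161 CPM in the ENZ cells (29 UMIs in 14 cells), a ratio of 3.55 (2.07 to 6.06). Slfn5 was at 15.6 and 89.0 CPM, a ratio of 5.70 (2.48 to 13.6) from 11 and 16 UMIs.

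Ifitm3 and Ifi27l2a, abundant genes of the list, went the other way. Ifitm3 was at 2342 CPM in control cells and 1925 CPM in the ENZ cells, a ratio of 0.822 (0.730 to 0.923), and Ifi27l2a at 482 and 350 CPM, a ratio of 0.728 (0.547 to 0.955). Bst2 (tetherin) was at 213 and 150 CPM, a ratio of 0.705 (0.450 to 1.07) with an interval that spans 1. Isg15, a ubiquitin-like protein, had a ratio above 1 at 134 and 172 CPM, 1.29 (0.832 to 1.96), and that interval spans 1 too. With a minimum of 100 CPM the list's median was -0.28. A direction for the list as a whole cannot be given.

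Of the heat shock genes, Hspa1a, Hspa1b and Hspb1 were lower in the ENZ cells. All 12 reached the minimum level, 11 had a ratio below 1, and 3 had a ratio of at most 1/1.5 (background 13%) and none a ratio of at least 1.5, with a median of -0.46. Hspa1a, an inducible Hsp70, was at 5317 CPM in the control (3743 UMIs in 76 of 76 cells) and 2336 CPM in the ENZ cells (420 UMIs in 22 of 25 cells), a ratio of 0.439 (0.396 to 0.486). Hspa1b, a near copy whose UMIs may be shared with it, was at 2464 and 1163 CPM. Hspb1 (Hsp27) was at 169 CPM (119 UMIs in 27 cells) and 11.1 CPM (2 UMIs), a ratio of 0.0658 (0.00788 to 0.243). Hspa8, the constitutive member, was at 1814 and 2036 CPM, a ratio of 1.12 (0.997 to 1.26).

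In the Cd209a carriers Hspa1a was at 5834 and 1761 CPM, and in the Flt3-only cells at 3905 and 3966 CPM. Of the 186 Hspa1a UMIs of the 10 Flt3-only ENZ cells, 73 and 52 were in 2 cells, so that value rests on them. With the large barcodes left out, the Flt3-only cells were at 4877 and 3966 CPM. The difference between these subsets was not tested. In other gates Hspa1a was lower in the ENZ library too, at 3816 and 1742 CPM (cDC1s), 2941 and 1832 CPM (Ccr7 gate), 6298 and 2570 CPM (C1q macrophages), 12118 and 8789 CPM (monocytes), 6009 and 5586 CPM (double-negative gate) and 3183 and 2707 CPM (T cells). The median of the heat shock list was -0.6 in the cDC1 gate, with 6 of 12 genes at a ratio of at most 1/1.5, and -0.31 in the Ccr7 gate, with 3 of 12. It was -0.63 in C1q macrophages and between -0.05 and -0.02 in the double-negative, monocyte and T cell gates.

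**Figure D4:**
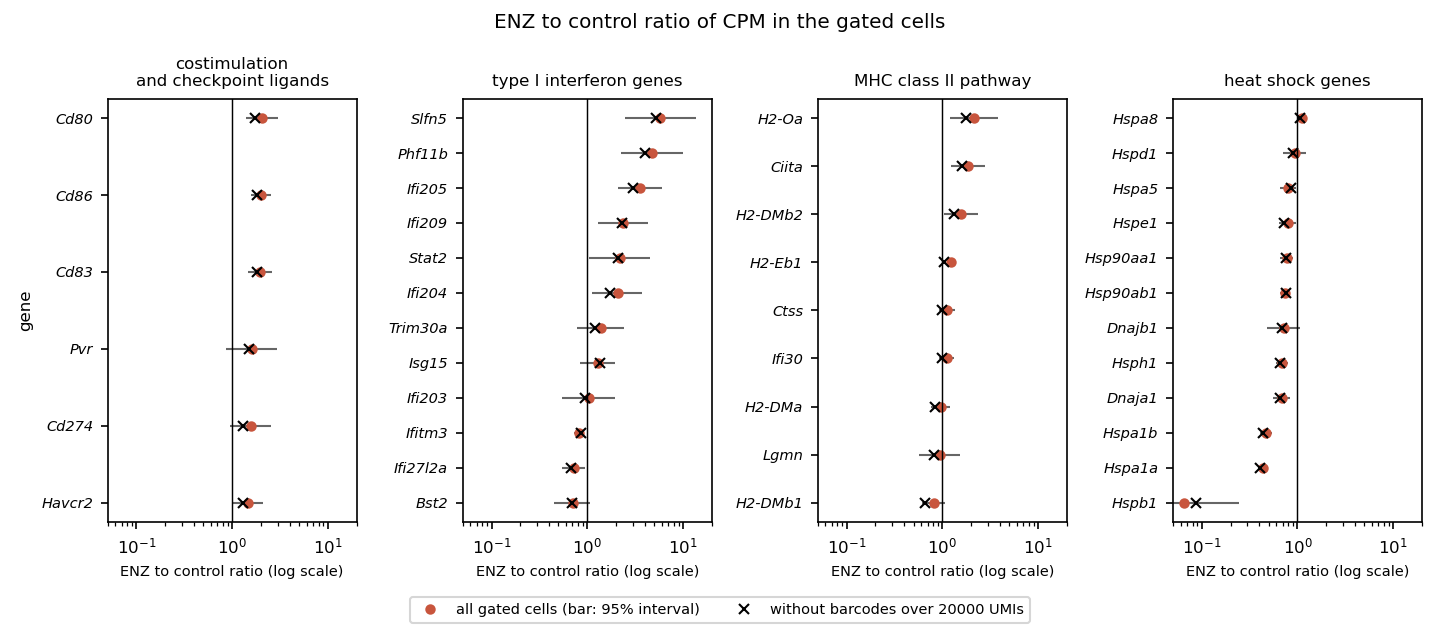
ENZ to control ratio of CPM (x axis, log scale, vertical line at 1) of genes of 4 lists that reached 50 CPM (some members are not shown), with 95% counting intervals as bars and crosses for the ratio without barcodes over 20000 UMIs. All 6 costimulation and checkpoint ligands lie above 1, 11 of 12 heat shock genes lie below 1, and the type I interferon genes run from 5.70 (Slfn5) to 0.705 (Bst2).

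Among single genes, ranked by whichever end of the interval lay closer to 1, 5 of the 10 highest were spread over several cells. Ccl4 (MIP-1beta), a chemokine of activated myeloid cells, was at 69.6 CPM in the control (49 UMIs in 17 of 76 cells) and 590 CPM in the ENZ cells (106 UMIs in 9 of 25 cells), a ratio of 8.47 (5.98 to 12.1). The barcodes with the most Ccl4 in the ENZ library had 38, 38 and 17 of its UMIs, and without barcodes over 20000 UMIs the ratio was 5.05 (3.44 to 7.47). Itgae (CD103) was at 17.0 and 106 CPM, from 12 UMIs in 8 cells and 19 UMIs in 7 cells, a ratio of 6.20 (2.86 to 14). Tnfaip3 (A20), an inhibitor of NF-kappaB signaling, was at 59.7 and 239 CPM (42 UMIs in 24 cells and 43 UMIs in 10 cells), a ratio of 4.01 (2.56 to 6.29).

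The others of the 10 rested on single barcodes. All 30 ENZ UMIs of Adcy9 were in 1 cell, as were 28 of 32 of Top2a, 30 of 33 of Hist1h1b and 31 of 34 of Ube2c, the last 3 being genes of dividing cells. The Top2a UMIs came from the barcode of 33030 UMIs with 11 keratin UMIs. With the large barcodes left out, the ratio was 1.78 (0.393 to 6.65) for Top2a, 2.14 (0.332 to 11) for Hist1h1b and 1.34 (0.228 to 5.57) for Ube2c, all with intervals that span 1. F11r had 120 of its 127 ENZ UMIs and 69 of its 83 control UMIs in 1 cell each. The remaining genes that were spread over the cells were Gm42418, which overlaps ribosomal RNA sequence, at 21991 and 58200 CPM (ratio 2.65, 2.58 to 2.71), and Gm19951, at 162 and 551 CPM (ratio 3.40, 2.57 to 4.49).

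Of the 10 lowest genes, 6 were spread over several control cells, the Hspb1 given above among them. Nrg1 (neuregulin 1) had 92 control UMIs in 25 cells, or 131 CPM, and 0 ENZ UMIs, and against a floor of 3 UMIs in that library was at least 7.83-fold lower. Lyz2, the lysozyme of myeloid cells, was at 619 CPM in the control (436 UMIs in 42 cells) and 200 CPM in the ENZ cells (36 UMIs in 8 cells), a ratio of 0.323 (0.224 to 0.455). Capg, an actin-capping protein of macrophages, was at 250 and 55.6 CPM (176 UMIs in 43 cells and 10 UMIs in 5 cells), a ratio of 0.223 (0.105 to 0.419). Ccdc162 was at 642 and 111 CPM, a ratio of 0.173 (0.105 to 0.271), and Kazn at 193 and 11.1 CPM, from 136 UMIs in 12 cells and 2 UMIs in 2 cells, a ratio of 0.0576 (0.00691 to 0.212). Without barcodes over 20000 UMIs the ratios of Lyz2, Capg, Ccdc162 and Kazn lay between 0.0524 (Kazn) and 0.359 (Lyz2), and Nrg1 had 88 and 0 UMIs.

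The level of Lyz2 turned on the gate's edge. Barcodes with exactly 2 UMIs of Cd209a and Flt3 had 778 CPM (control) and 62.9 CPM (ENZ) of it, and those with exactly 1, just outside, had 381 and 814 CPM. With the sum lowered to at least 1 UMI the log2 ratio of Lyz2 went from -1.63 to 0.10. The remaining low genes rested mostly on 1 control cell. S100a9, a neutrophil gene, had 203 of 228 control UMIs in 1 cell and 0 ENZ UMIs, at least 19.4-fold lower. Exoc3l2 had 77 of 90 UMIs in 1 cell and 0 ENZ UMIs, at least 7.66-fold lower, and Gtf2h1 and Prpf6 had 91 of 112 and 55 of 87.

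The summed levels of other cell types' lists differed between the libraries as follows. Neutrophil genes summed to 524 CPM in the control (7 of 8 genes, S100a9 highest at 324 CPM) and 94.6 CPM in the ENZ cells (5 of 8, S100a8 highest at 38.9 CPM), with Ly6g at 0 in both. The control cell with the most S100a9 held most of these UMIs, and without it the control sum was 124 CPM. Cancer cell genes summed to 337 CPM (5 of 7, Krt8 highest at 118 CPM) and 189 CPM (6 of 7, Krt18 highest at 66.8 CPM), with Cldn4 at 0 in both. Without barcodes over 20000 UMIs the cancer cell genes summed to 132 and 123 CPM, with Krt8 at 9.56 and 20.4 CPM. Macrophage genes, 3 of them limited by the gate, summed to 818 CPM (17 of 18) and 612 CPM (13 of 18), with Spp1 highest at 298 and 167 CPM and Cd163 at 0 in both. Without the large barcodes they summed to 558 and 559 CPM, and Spp1 was at 44.0 and 68.2 CPM, a ratio of 1.55 (0.659 to 3.39). The neutrophil sums were then 679 and 81.8 CPM. Fibroblast genes, led by Col3a1, summed to 126 and 89.0 CPM with Dcn, Lum and Pdgfra at 0 in both, and to 57.3 and 40.9 CPM without the large barcodes. Leaving out cells with UMIs of other lineages (at least 3 of the keratins, 20 of S100a8 and S100a9 or 2 of Gzma, Prf1 and Ncr1) gave log2 ratios of 0.83 for Cd86, -1.31 for Hspa1a and -1.5 for Lyz2, and leaving out doublet scores over 0.25 gave 0.78, -1.41 and -1.74.

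Free RNA was estimated from barcodes of 10 to 100 UMIs and scaled to the keratin UMIs of the gated cells, which were 140 (control) and 16 (ENZ). That came to 39.6% of the gated control UMIs and 15.6% of the gated ENZ UMIs. Most of these keratin UMIs were in the large barcodes, and with those left out 9 and 5 remained, which came to 3.42% and 5.99%. Under the first estimate no Camk1d or Gm42418 UMI was left in control cells, Lyz2 came to 194 and 118 CPM, and Ifi27l2a changed direction, at 277 and 337 CPM. With the large barcodes left out, Camk1d was at 923 and 2389 CPM, Lyz2 at 664 and 219 CPM and Ifi27l2a at 586 and 400 CPM. Cd86, at 400 and 688 CPM under the first estimate and 384 and 711 CPM under the second, and Hspa1a, at 6555 and 2450 CPM and then 6854 and 2787 CPM, kept their directions in both.

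Of the cDC1 list, Wdfy4 was higher in the ENZ cells among Cd209a carriers and Flt3-only cells alike, and Irf8 was at a lower CPM in both. Clec9a and Xcr1 are at 0 by the rule, and 5 of the other 9 genes reached the minimum level, of which 4 had a ratio of at least 1.5 and none a ratio of at most 1/1.5, with a median of 1.19. Wdfy4 was at 182 and 490 CPM (128 UMIs in 43 cells and 88 UMIs in 23 cells), a ratio of 2.69 (2.03 to 3.56). Irf8 was at 111 and 77.9 CPM, in the opposite direction. The Flt3-only cells, where Cadm1, Irf8 and Wdfy4 were at higher CPM, were 26.3% of the gated control cells and 40% of the gated ENZ cells. In the Cd209a carriers alone Wdfy4 was at 122 and 437 CPM, Cadm1 at 13.6 and 15.1 CPM and Irf8 at 48.5 and 30.1 CPM.

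Of the cDC2 and dendritic cell markers outside the gate, 9 of 11 reached the minimum level and 3 had a ratio of at least 1.5 and none a ratio of at most 1/1.5, with a median of 0.53. Zbtb46, a transcription factor of conventional dendritic cells, was at 48.3 and 122 CPM (34 and 22 UMIs), a ratio of 2.53 (1.41 to 4.46), and Sirpa had a ratio of 2 (1.21 to 3.23). Of 14 transcription factors at the minimum level, Zbtb46, Id2 and Rbpj were higher and Cebpb, a factor of monocytes and macrophages, was lower. Id2, a repressor on which cDC1s depend, was at 112 and 217 CPM, and Cebpb at 374 and 223 CPM. The ratio of Id2 was 1.56 (0.998 to 2.40) without barcodes over 20000 UMIs. Rbpj, the nuclear partner of Notch on which some cDC2s depend, was at 303 and 484 CPM, a ratio of 1.60 (1.23 to 2.06).

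Chemokines were divided. Of 7 genes at the minimum level, 2 had a ratio of at least 1.5 and 3 a ratio of at most 1/1.5. Their median was -0.26, and it was 0.63 without barcodes over 20000 UMIs. Cxcl1, then at 32.5 and 40.9 CPM, no longer reached the minimum level, and Cxcl2 had a ratio of 1.94 (1.42 to 2.65). With all barcodes the higher ones were Ccl4, given above, and Cxcl10, at 54.0 and 211 CPM, with 30 of 38 ENZ UMIs in 1 cell. Ccl17, counted in the mature dendritic cell list, was at 82.4 and 200 CPM, with 27 of 36 ENZ UMIs in 1 cell. Ccl6 was lower, at 234 and 100 CPM, a ratio of 0.427 (0.247 to 0.697). Its direction turned with the gate's edge, from -1.23 to 0.74 on the log2 scale at a Cd209a and Flt3 sum of at least 1. Ccl2, at 300 and 178 CPM, and Cxcl1, at 285 and 139 CPM, had lower levels in the ENZ cells, but without barcodes over 20000 UMIs their ratios were 1.23 (0.557 to 2.50) and 1.26 (0.406 to 3.35). Of the cytokines, Il1b was at 1190 and 1513 CPM, a ratio of 1.27 (1.10 to 1.46) with 272 ENZ UMIs in 18 of 25 cells, 67 of them in 1 cell. Its ratio was 1.13 (0.976 to 1.30) without barcodes over 20000 UMIs, an interval that spans 1. Il12b had no UMI in either library.

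The study followed Camk1d, a calcium-dependent kinase, and Cd44, the hyaluronan receptor. Camk1d was at 936 CPM in the control (659 UMIs in 75 of 76 cells) and 2247 CPM in the ENZ cells (404 UMIs in 25 of 25 cells), a ratio of 2.40 (2.12 to 2.72), and its ratio was 2.39 (2.09 to 2.72) without barcodes over 20000 UMIs. It could not be given after the first subtraction of free RNA above, which left no control UMI. The other gates showed the same direction, with 1185 and 2610 CPM of Camk1d in cDC1s, 1330 and 2930 CPM in monocytes and 1700 and 3456 CPM in T cells, so the difference was found beyond the gated cells. In the cancer gate, after thinning, 43.2% of control and 73.1% of ENZ cells had a Camk1d UMI. The rRNA-like genes, a list that includes Gm42418, moved with Camk1d. Of these, 6 of 8 were at a ratio of at least 1.5 and none at a ratio of at most 1/1.5, with a median of 1.22. Every other gate also had 6 of 8 at a ratio of at least 1.5, with medians from 1.06 (T cell gate) to 1.41 (cancer gate). The part of these genes in the Camk1d difference was not tested. Cd44 was at 415 CPM (292 UMIs in 54 cells) and 289 CPM (52 UMIs in 14 cells), a ratio of 0.697 (0.509 to 0.939).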

How the data were processed

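For every barcode, the authors deposited the raw count of UMIs of each gene, and no other unit was used. The file headers name Cell Ranger 7.2.0, the submitters' processing notes Cell Ranger 2.1.1 and mm10. The counting of intronic reads is not given in the sources used here. Cells were gated from these counts without clustering or a doublet caller. UMIs were summed per gate and library, with exact Poisson, conditional binomial (ratios) and Clopper-Pearson (shares) intervals at 95%. Zero counts were bounded by 3 UMIs per library, also in list medians. No test was made, because cells are not replicates. The gate and the 37 gene lists were chosen with earlier results of these data known. Genes named are those of the lists, the 10 highest and 10 lowest ratios by the bound nearer to 1, leading genes over each gate (10 each, of which some are shown), Camk1d and Cd44. Some genes that these rules cover are not reported here. Other gates used Ly6c2 and Chil3 (at least 3 UMIs) with Lyz2 (at least 5) for monocytes, C1q genes (at least 20) with Lyz2 for macrophages, Clec9a and Xcr1 or Ccr7 (at least 2) for cDC1s and Ccr7 cells, and Cd3 genes (at least 3) for T cells. Doublet scores were from scrublet in scanpy 1.11.5. The ratio and interval steps were run on simulated Poisson counts of each gene, drawn without spread between cells. That simulation does not show how the intervals behave for genes with most UMIs in few cells. Promoters came from RefSeq. Python 3.11.15, numpy 2.4.6, scipy 1.17.1, pandas 2.3.3 and matplotlib 3.10.9 were used.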

Additional observations from a re-analysis of the deposited data

Results flagged for a closer look

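Cxcl10, a chemokine for Cxcr3-bearing T cells, had opposite directions in the gated cells and in the cDC1 gate. In the gated cells it was at 54.0 CPM in the control (38 UMIs in 10 cells) and 211 CPM in the ENZ library (38 UMIs in 4 cells), a ratio of 3.92 (2.43 to 6.31). In the cDC1 gate it had 70 control and 5 ENZ UMIs, a ratio of 0.211 (0.0665 to 0.516). The difference between the gates was not tested. Without barcodes over 20000 UMIs the ratio in the gated cells was 6.28 (3.58 to 11.3). Of the 38 ENZ UMIs in the gated cells 30 (78.9%) were in 1 cell.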

How the results depend on the processing

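No paired analysis was possible because only 1 library was made per condition. Leaving out barcodes over 20000 UMIs (also in other gates), subtracting free RNA after that, keeping Cd209a carriers only and leaving out each gene's highest cell were chosen after seeing the data. Of the values of shares, composition, counts and the chosen lists, 154 stayed within the spread set for them, 8 moved and 1 reversed. Of those of single genes and other lists, 1652 stayed, 215 moved (63 results) and 24 reversed (10 results). The log2 ratio of shares (-1.35) was -0.33 among class II barcodes. Cd209a carriers in the control were 90.0% with a Cd209a and Flt3 sum of at least 3. Without each gene's highest cell, 256 genes were higher and 893 lower, a step that removes 1 of 25 ENZ but 1 of 76 control cells per gene. In cells with Flt3, 611 were lower. The type I interferon median was -0.28 at a minimum of 100 CPM, and the heat shock median -0.76 in cells with at least 2 Cd209a UMIs. Without barcodes over 20000 UMIs, 202 genes were higher than in cDC1s and 162 lower than in the Ccr7 gate. On the log2 scale, a sum of at least 1 gave -1.10 for cell cycle genes, -0.96 for Top2a, -0.03 for Hist1h1b, -1.45 for Ube2c, 0.10 for Lyz2 and 0.74 for Ccl6. Without the highest cell, cell cycle genes were at -0.48 and Ube2c at -0.53. Gtf2h1 was at 0.02 in cells with at least 2 Cd209a UMIs and 0.28 in Cd209a carriers, and Cadm1 at -0.38 with C1q at 0. Ccl2 was at 0.17 (sum of at least 3), 0.70 (C1q at 0), 0.24 (doublet scores), 0.26 (other lineages), 0.29 (over 20000 UMIs), 0.11 (at least 2 Cd209a) and 0.03 (Cd209a carriers). Cxcl1 was at 0.92 (doublet scores), 0.30 (other lineages), 0.33 (over 20000 UMIs), 0.60 (with free RNA subtracted too), 0.44 (at least 2 Cd209a) and 0.37 (Cd209a carriers). The causes were not tested. Depth limits the ENZ cells most, since 25 cells were summed.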

Other observations

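Other gene groups of the gated cells were described by the same counts, beside backgrounds of 15.2% higher and 13% lower. Of 9 hypoxia genes at the minimum level, 4 had a ratio of at most 1/1.5, 2 of them with an interval below 1, and none a ratio of at least 1.5. The list's median was -0.34, which was -0.04 without barcodes over 20000 UMIs. Hilpda, a lipid droplet protein induced in low oxygen, was at 131 CPM in the control (92 UMIs in 30 cells) and 38.9 CPM in the ENZ cells (7 UMIs), a ratio of 0.298 (0.117 to 0.639). Slc2a1 (GLUT1), the glucose transporter, was at 105 and 33.4 CPM, a ratio of 0.318 (0.113 to 0.725). Lipid and cholesterol genes had 3 of 9 at a ratio of at most 1/1.5, none at a ratio of at least 1.5 and a median of -0.54, and glycolysis genes 1 of 11, none and -0.10.

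Immediate early genes were divided, with 5 of 22 at a ratio of at least 1.5, 2 at a ratio of at most 1/1.5 and a median of 0.03. Fos was at 403 and 189 CPM, a ratio of 0.469 (0.318 to 0.671), and Ier3 at 543 and 217 CPM, a ratio of 0.4 (0.280 to 0.557) that was 0.627 (0.416 to 0.917) without barcodes over 20000 UMIs. Nr4a1, an orphan nuclear receptor, went the other way at 107 and 239 CPM, a ratio of 2.25 (1.51 to 3.31). Once barcodes over 20000 UMIs were left out, Fosb (0.515), Jund (0.589) and Egr1 (0.336) also had ratios of at most 1/1.5. Fos was then at 0.501, Nr4a1 at 2.30 and Zfp36 at 1.59. Cell cycle genes had 6 of 8 at a ratio of at least 1.5, none at a ratio of at most 1/1.5 and a median of 0.83, which was 0.16 without barcodes over 20000 UMIs. The median reversed to -1.10 at a Cd209a and Flt3 sum of at least 1, where 10 of 12 genes had a ratio of at most 1/1.5. It was -0.48 without each gene's highest cell.

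Receptors held a few single differences. Gpr183, the oxysterol receptor that guides dendritic cells in lymphoid tissue, was at 76.7 CPM in the control (54 UMIs in 19 cells) and 211 CPM in the ENZ cells (38 UMIs in 9 cells, 18 of them in 1 cell), a ratio of 2.76 (1.77 to 4.25). Kit, the stem cell factor receptor, was at 25.6 and 111 CPM from 18 and 20 UMIs, a ratio of 4.35 (2.19 to 8.73), but 8 of the ENZ UMIs were in 1 barcode over 20000 UMIs, and without it and the large control barcodes the ratio was 2.38 (1.04 to 5.22). Il1r2, a decoy receptor for interleukin 1, was at 484 and 662 CPM, a ratio of 1.37 (1.10 to 1.69) that was 1.03 (0.817 to 1.30) without the large barcodes. Interferon gamma genes had 4 of 5 at a ratio of at least 1.5, 1 at a ratio of at most 1/1.5 (Irf1, at 109 and 66.8 CPM) and a median of 0.89, with Ciita, Cd274 and Cxcl10 among the higher ones. Without the large barcodes Irf1 was at 76.5 and 61.3 CPM, a ratio of 0.802 (0.342 to 1.68). Of the 24 genes of Toll-like receptors and sensors, 6 reached the minimum level, of which Aim2 and Ifih1 had a ratio of at least 1.5 and none a ratio of at most 1/1.5.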
